A study of Mus musculus with 12 samples.

Results

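Replication fork direction was compared between naive mouse embryonic stem cells (ESCs) and epiblast-like cells (EpiLCs) of the KMT2C/D dCD line, labelled double catalytic dead for these H3K4 methyltransferases. The comparison rests on 4 of the 12 samples of the series, 2 replicates in each state, chosen by their labels. In all, OK-seq covered naive ESCs and EpiLCs (labelled formative) of 3 lines, dCD, a KMT2C knockout that serves as control, and a KMT2C/D double knockout (dKO). Naive ESCs were kept in LIF and 2i, and EpiLCs were obtained from the same line by growth without them. The KMT2D catalytic dead ES cells are male R1 cells of a 129 strain background, whereas the KMT2C knockout cells with conditional KMT2D come from a mixed C57BL/6 and 129 background and carry Cre-ER, through which 4-hydroxytamoxifen removes KMT2D in the dKO. Line and strain background therefore cannot be told apart between dCD and the other 2 lines, but they are shared by both states of dCD. Each genotype is represented by 1 line.

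DNA polymerase copies the lagging strand as short Okazaki fragments, so the strand from which these fragments come shows in which direction a fork moved. Where forks start in both directions, at an initiation zone, the fragments switch from the Watson to the Crick strand from left to right, and where forks meet the switch is reversed. In mammalian cells many initiation zones lie at or next to the starts of active genes. KMT2C and KMT2D place the H3K4me1 mark, which is found at enhancers and promoters, and their activity is part of the enhancer changes that accompany the passage from naive to formative pluripotency.

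Each deposited track is the sum of 2 replicates, so there was no spread between replicates to test against and no p-value is given. The intervals below are 95% intervals for counting error only, and they compare these summed tracks, also called libraries below, not the conditions. The naive dCD track held 3655095 reads and the EpiLC dCD track 13601460, a mean of 34.5 and 129 reads per 25 kb. Fork direction is given as the Crick share, the percentage of reads on the Crick strand, which is taken as the percentage of forks that move from left to right. This holds only as far as the reads come from Okazaki fragments. Strand bias is the Crick share of the 25 kb on the right side of a site after subtraction of the Crick share of the 25 kb on the left side, in percentage points. EdU, which marks the new fragments, replaces thymidine, and in both libraries the strand share of a 1 kb bin followed its T minus A content, with a slope of 1.82 points per point in naive ESCs and 1.416 in EpiLCs. Values without this part are given beside the results they move most. OK-seq holds no expression, so the pluripotent states could not be checked against marker genes. Kmt2c was covered by 426 naive and 1562 EpiLC reads and Kmt2d by 96 and 311, which shows that both loci are present and says nothing of the point mutations.

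Strand bias is compared below between gene starts of different CpG content, so the bases upstream of 4 described starts are shown first. They span a CpG-poor start (Nr5a2), 2 CpG-rich starts of naive pluripotency genes with a lower strand bias in EpiLCs (Tfcp2l1 and Stat3) and a CpG-rich start with a higher one (Dlx2). Each is the 250 bases before the start as given by RefSeq on GRCm38.p6, 5′ to 3′ on the gene's own strand, with the dinucleotide CG in capitals. Of the 84 genes on the naive pluripotency, formative and developmental transcription factor lists, 14 had a RefSeq promoter at exactly the start used here.
Tfcp2l1: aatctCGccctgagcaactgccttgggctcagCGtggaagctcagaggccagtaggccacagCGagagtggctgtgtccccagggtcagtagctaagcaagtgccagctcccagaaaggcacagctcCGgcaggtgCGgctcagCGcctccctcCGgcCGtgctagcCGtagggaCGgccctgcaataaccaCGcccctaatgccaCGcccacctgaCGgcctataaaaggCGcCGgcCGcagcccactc
Stat3: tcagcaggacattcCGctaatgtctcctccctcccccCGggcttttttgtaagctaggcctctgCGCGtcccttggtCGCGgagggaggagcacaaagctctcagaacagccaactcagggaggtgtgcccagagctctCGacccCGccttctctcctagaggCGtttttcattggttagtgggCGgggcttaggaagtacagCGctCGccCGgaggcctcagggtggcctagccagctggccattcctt
Dlx2: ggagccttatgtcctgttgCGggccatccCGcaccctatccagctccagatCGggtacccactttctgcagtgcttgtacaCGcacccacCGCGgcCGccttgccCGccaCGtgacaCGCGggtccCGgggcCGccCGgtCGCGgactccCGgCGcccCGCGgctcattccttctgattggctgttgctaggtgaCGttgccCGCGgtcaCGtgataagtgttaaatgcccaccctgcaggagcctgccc
Nr5a2: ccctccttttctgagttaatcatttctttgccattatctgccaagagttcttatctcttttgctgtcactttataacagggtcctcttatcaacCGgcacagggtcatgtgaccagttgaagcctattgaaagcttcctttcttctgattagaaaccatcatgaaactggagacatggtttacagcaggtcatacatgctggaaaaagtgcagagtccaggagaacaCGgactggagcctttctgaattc
These stretches lie at chr1:118627695-118627944 (Tfcp2l1, plus strand), chr11:100939541-100939790 (Stat3, minus strand), chr2:71546755-71547004 (Dlx2, minus strand) and chr1:136960449-136960698 (Nr5a2, minus strand), and contain no annotated exon. The motif searched was CG, which reads the same on both strands. It occurred 16 times upstream of Tfcp2l1, 13 times upstream of Stat3, 24 times upstream of Dlx2 and 2 times upstream of Nr5a2. Over the 32851 RefSeq promoters the median was 6, and 92.1% held at least 1. As many as in Tfcp2l1 were found in 25.4% of them, as in Stat3 in 31.5%, as in Dlx2 in 11.98% and as in Nr5a2 in 81.2%.

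The map of fork direction in dCD EpiLCs resembled that of naive ESCs, but it was flatter. Over 49460 windows of 50 kb, the standard deviation of the Crick share after removal of counting variance (the amplitude) was 16.5 points in naive ESCs and 12.3 in EpiLCs, a ratio of 0.744. The same ratio was 0.741 in 500 kb windows, where the amplitude went from 11.6 to 8.60 points, and 0.715 in 5 Mb windows, where it went from 2.89 to 2.07 points. With counting error taken off, the correlation of EpiLC with naive values was 0.923 over 50 kb windows and 0.944 over 5005 windows of 500 kb. This is a description across windows that share 2 summed tracks.

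The flattening was seen on every chromosome. The amplitude ratio in 50 kb windows was below 1 on 20 of 20 chromosomes, from 0.717 on chromosome 3 to 0.770 on chromosome X. It ranged from 0.708 in the windows poorest in GC to 0.767 in those richest in GC, and from 0.774 to 0.790 across the 5 GC classes without the T minus A part. Without that part the ratio over all 50 kb windows was 0.779, with amplitudes of 12.5 and 9.70 points, and it was 0.774 over 500 kb and 0.754 over 5 Mb windows. The EpiLC library is the deeper one, but after both were thinned to the same number of reads the ratio was 0.745. The T minus A slope was also lower in EpiLCs than in naive ESCs, at 1.416 against 1.82 in dCD. It was 1.206 against 1.761 in control and 1.373 against 1.698 in dKO. Whether both states held the same share of reads from Okazaki fragments was not tested, and with 1 track per state this cannot be told apart from a flatter map.

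To show the same in fork direction itself, 500 kb windows were placed in classes by the even 1 kb bins of the naive library and measured in the odd bins. In the 554 windows with mostly leftward forks in naive ESCs (a Crick share under 35%), the mean Crick share was 30.5% in naive ESCs and 36.5% in EpiLCs. In the 552 windows with mostly rightward forks (65% or more) it was 69.7% and 63.8%. The 1672 windows between 45 and 55% were near an even share in both, at 49.95% and 49.98%. Both extremes therefore lay about 6 points nearer to an even share in EpiLCs, 5.98 points on the left-moving and 5.84 on the right-moving side.

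**Figure D1:**
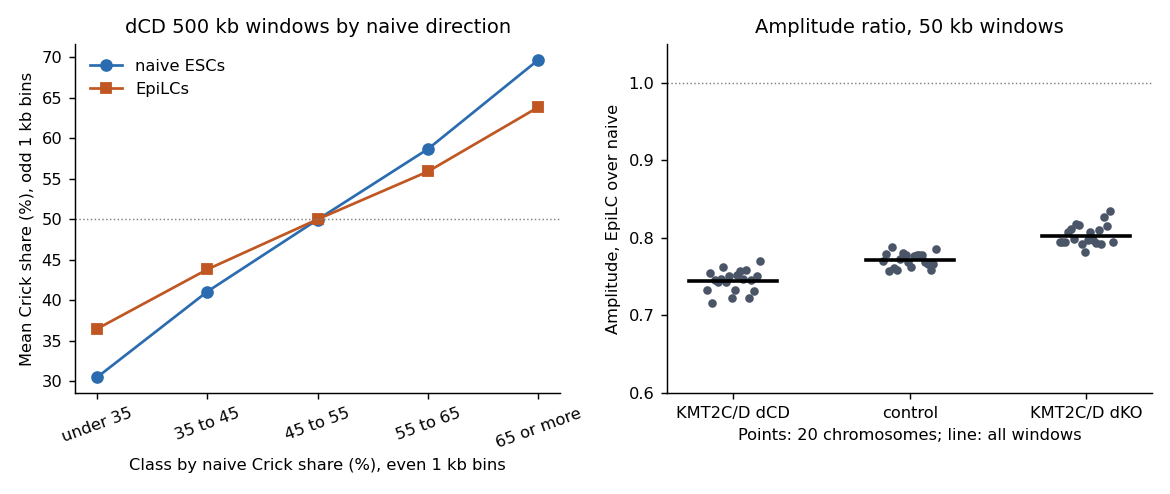
Left, mean Crick share of dCD 500 kb windows in naive ESCs (circles) and EpiLCs (squares), by class of the naive Crick share. Right, amplitude of fork direction in EpiLCs over that in naive ESCs in 50 kb windows for each of 20 chromosomes (points) and all windows (line). The EpiLC values lie nearer to 50% at both ends, and all points lie below 1, with 0.744 over all windows in dCD, 0.772 in control and 0.802 in dKO.

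Rescaling the naive map left a smaller part of the EpiLC map over. A straight line through the naive 500 kb values had a slope of 0.699 and accounted for 89.1% of the variance of the EpiLC values beyond counting error, with 2.84 points of residual standard deviation. In 50 kb windows it accounted for 85.3%, with 4.71 points left. What was left in dCD also appeared in the other lines, which share no sample with it. The residuals of dCD and control correlated at 0.469 over 5004 windows of 500 kb (0.664 with counting error taken off) and those of dCD and dKO at 0.451 (0.714). These are descriptions across windows that share genome sequence and, within a line, libraries.

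Single windows were called where the interval of the difference left out 0 and the difference was at least 10 points (50 and 500 kb) or 5 points (5 Mb). Of the 50 kb windows 18.7% were called (9245 of 49460), of the 500 kb windows 4.5% (225 of 5005) and of the 5 Mb windows 0.196% (1 of 511). The directions were balanced, with a higher Crick share in EpiLCs in 114 of the 500 kb windows and a lower one in 111. Among these 225 windows, 171 lay nearer to an even share in EpiLCs, 5 lay farther from it and 49 lay on its other side. These are 76%, 2.22% and 21.8% of the called windows, against 65.8%, 21.2% and 13.0% of all 5005. In 25 of the 49 on the other side, the intervals of both states left out 50%, so that the prevailing fork direction was opposite in naive ESCs and EpiLCs. These 25 are 11.1% of the called windows, against 65 of all 5005 (1.30%). The median half-width of a window's interval was 12.04 points at 50 kb, 3.95 at 500 kb and 1.30 at 5 Mb, so that most 50 kb windows could not show a difference of 10 points at this depth. Without the T minus A part 114 windows of 500 kb were called in place of 225, and the 5 Mb window was not.

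The windows with the largest differences are named by size, as a description. A pair of neighbouring windows on chromosome 3 differed in opposite directions. In chr3:80500001-81000000, which holds Gria2 and Glrb (a subunit of the AMPA and of the glycine receptor), the Crick share was 26.04% in naive ESCs and 43.1% in EpiLCs. In the adjoining chr3:81000001-81500000, which holds Pdgfc (a platelet-derived growth factor), it was 72.7% and 56.1%. Forks thus moved away from the border on both sides in naive ESCs, as at an initiation zone, and over these 500 kb windows did so much less in EpiLCs.

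The step across this border was 46.6 points (41.8 to 51.2) in naive ESCs and 13.0 points (10.2 to 15.8) in EpiLCs of dCD. It rested on 649 and 710 naive and on 2382 and 2425 EpiLC reads on the left and the right. In the control line the step was 35.3 and 13.8 points, and in dKO 36.8 and 21.5 points. Taking off the T minus A part left dCD steps of 36.8 and 8.41 points. In 50 kb windows, the naive Crick share of dCD went from 12.5% at 125 kb to the left of the border to 85.6% at 175 kb to its right, where the EpiLC values were 31.2% and 51.2%. At 75 kb to the left and the right of the border the naive shares were 25.9% and 72.7%, and the EpiLC shares 32.8% and 69.0%. The nearest 100 kb on either side thus kept much of the step in EpiLCs, with the larger differences farther out.

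**Figure D2:**
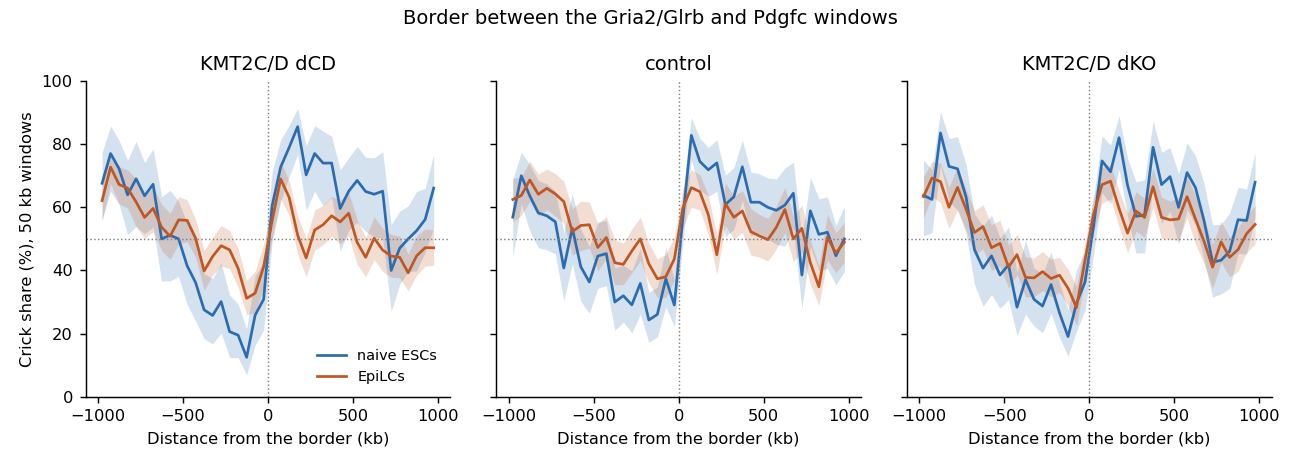
Crick share (%) in 50 kb windows against the distance in kb from the border between the Gria2/Glrb and Pdgfc windows, in naive ESCs and EpiLCs of each line. Lines are single tracks, each the sum of 2 replicates, and bands 95% Wilson intervals for counting error. In dCD the naive curve runs from 12.5% at 125 kb left of the border to 85.6% at 175 kb right of it, and the EpiLC curve is flatter in all 3 lines. At 75 kb on either side the naive curve of dCD stands at 25.9% and 72.7%, and the EpiLC curve at 32.8% and 69.0%.

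The other named windows with a higher Crick share in EpiLCs were spread over 4 chromosomes. At chrX:143500001-144000000, with Pak3 and Dcx, genes of neuronal signalling and migration, it was 34.4% in naive ESCs and 52.6% in EpiLCs. At chr5:27000001-27500000, with Dpp6, a potassium channel subunit, it was 37.9% and 55.1%, with intervals of 34.5 to 41.4 and 53.2 to 56.9, so that the prevailing direction was reversed. The window chr6:69500001-70000000 holds no protein-coding gene but 18 immunoglobulin variable gene segments, and its Crick share was 35.02% and 53.0%, again with the prevailing direction reversed (31.0 to 39.2 and 50.8 to 55.3). At chr15:94000001-94500000, with Adamts20, a matrix protease, it was 27.6% and 43.6%.

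The remaining windows with a lower Crick share in EpiLCs included 2 whose direction was reversed with both intervals off 50%. These were chr1:184000001-184500000, with the phosphatase gene Dusp10, at 62.7% in naive ESCs and 46.4% in EpiLCs, and chr16:50000001-50500000, with Bbx, at 54.5% and 38.2%. At chr4:127500001-128000000, with Csmd2, the values were 70.6% and 53.1%. At chr1:83000001-83500000, with Sphkap, they were 77.3% and 60.4%. The single called 5 Mb window was the first of chromosome 9, with Gria4, at 59.7% and 53.1%. It held 2422 naive reads, little above the minimum of 2000, and its difference was -6.57 points (-8.77 to -4.35), or -1.02 without the T minus A part.

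The 500 kb windows were chosen in dCD, and the other 2 lines, whose samples took no part in the choice, give the same windows with differences that the choice did not raise. All 10 named windows differed in the same direction in the control line, and 9 of 10 in dKO, where the exception was the Dusp10 window (47.3% and 48.9%). Over the 225 called windows the mean difference in the direction of dCD was 12.03 points in dCD itself, 4.79 in control and 4.62 in dKO. The choice itself raises the first of these values. Its sign was that of dCD in 201 of 225 windows in control (89.3%) and in 207 in dKO (92%). Over all 5004 windows with enough reads in every line, the sign was shared in 69.0% with control and 70.7% with dKO. In turn, the 62 windows called in control differed by 11.5 points on average in control itself, 8.20 in dCD and 4.73 in dKO. The 35 called in dKO differed by 11.35 points in dKO itself, 7.95 in dCD and 5.05 in control. In both sets the difference was thus larger in dCD than in the third line. Differences were larger in dCD over all 500 kb windows too. Their standard deviation beyond counting error was 4.50 points in dCD, 3.17 in control and 2.76 in dKO.

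The amplitude ratio was lowest in dCD as counted, 0.744 against 0.772 in control and 0.802 in dKO, with chromosome ranges of 0.717 to 0.770, 0.757 to 0.789 and 0.782 to 0.834. This order depended on the T minus A part, since without it the ratios were 0.779, 0.866 and 0.837, still lowest in dCD but with control above dKO. As counted, the windows richest in GC had a ratio of 0.767 in dCD and 0.764 in control, whereas dCD was lowest in the other GC classes. The naive dCD map was the steepest of the 6, with an amplitude of 16.5 points against 12.6 in control and 13.3 in dKO naive ESCs. The EpiLC dCD map, at 12.3 points, was also steeper than those of control (9.73) and dKO (10.6). With 1 track per condition these differences have no replicate check, and line and strain background cannot be told apart.

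Strand bias at gene starts was positive on average in both states, the sign of initiation, with a smaller step in EpiLCs. Over 20592 of 21755 protein-coding gene starts with at least 10 reads on each side, the mean strand bias was 7.03 points in naive ESCs and 5.06 in EpiLCs of dCD. The difference was -1.97 points (-2.13 to -1.81). It was below 0 on 20 of 20 chromosomes, from -3.98 points on chromosome X to -0.831 on chromosome 19. The ratio of the means was 0.719, against an amplitude ratio of 0.744 for the whole map in 50 kb windows. After the EpiLC values were divided by the latter, a difference of -0.226 points with a standard error of 0.090 was left. This is beyond counting error only with the amplitude ratio taken as exact. In 5 Mb windows that ratio was 0.715, below the one at gene starts. Without the T minus A part the means were 3.12 and 2.15 points, a ratio of 0.689 against 0.779 for the map. In control the ratio at gene starts as counted was 0.669 against 0.772, and in dKO 0.738 against 0.802.

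Forks moved with transcription downstream of gene starts and against it upstream. These shares are as counted, and the mean naive strand bias of 7.03 points was 3.125 without the T minus A part. At 7.5 kb downstream, 56.1% of forks moved with transcription in naive ESCs and 54.4% in EpiLCs. At 97.5 kb upstream the share was 46.0% and 46.8%. The curves of both states thus met at the start itself, where 50.85% and 51.2% of forks moved with transcription in the last 5 kb before it, and separated on either side.

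As counted, the step was larger at gene starts with more CpG in both states, and its difference between the states was more negative there. In the quartile with 12 or fewer CpG within 500 bases on either side, mean strand bias was 1.61 points in naive ESCs and 1.65 in EpiLCs, a difference of 0.04 (-0.31 to 0.40). The second quartile had 5.63 and 4.19 points. In the third quartile it was 9.28 and 6.23 points, and in the highest quartile, with 70 or more CpG, 10.9 and 7.71 points, a difference of -3.19 (-3.51 to -2.86). The ratios of the 3 upper quartiles were 0.745, 0.671 and 0.708. Without the T minus A part the steps were less than 0.5 times as large in the 2 upper quartiles, and neither the naive step nor the difference was larger in the highest than in the third. The naive means were then 0.17, 3.05, 4.51 and 4.41 points from the lowest to the highest quartile. The differences were 0.36 (-0.0043 to 0.73), -0.75 (-1.09 to -0.40), -1.80 (-2.13 to -1.47) and -1.53 points (-1.87 to -1.20).

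**Figure D3:**
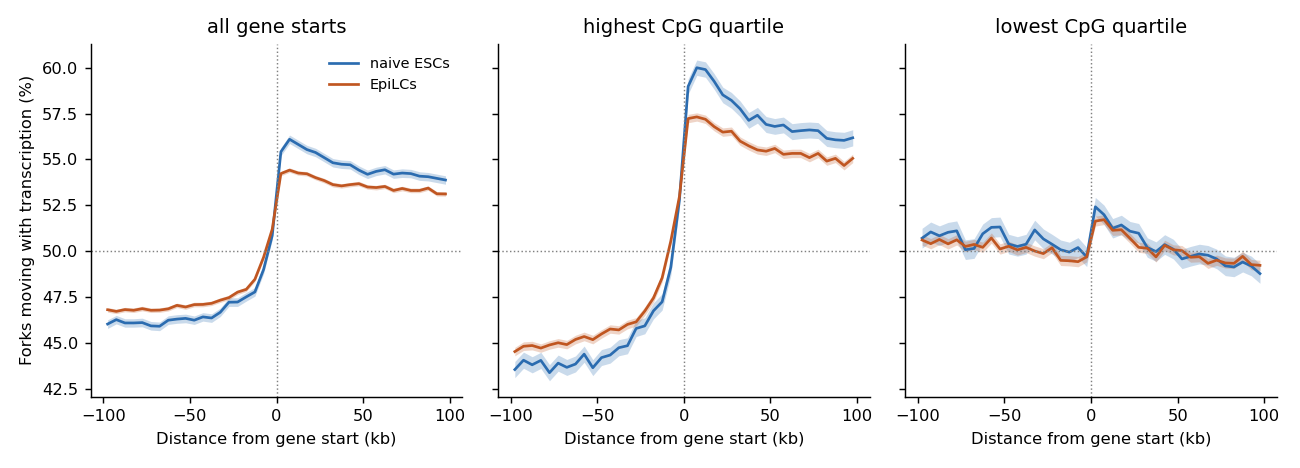
Share of forks that moved in the direction of transcription (%) against the distance in kb from the gene start, in 5 kb steps, for all gene starts and the highest and lowest CpG quartile in dCD. Lines are single tracks as counted, each the sum of 2 replicates, and bands 95% Wilson intervals. Downstream of CpG-rich starts the naive curve reaches 60% and the EpiLC curve 57.3%, and at CpG-poor starts neither curve exceeds 52.4%.

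Single gene starts were poorly resolved, since the median half-width of the interval was 21.7 points. The interval of the difference lay below 0 at 1127 gene starts (5.47%) and above 0 at 551 (2.68%), and the difference itself was below 0 at 55.7% of starts, with a median of -1.80 points. Among the 15745 starts with at least 30 reads on each side, the 8 with the largest lower and the 8 with the largest higher values in EpiLCs are named by size, at least 200 kb apart on a chromosome. At Pot1a, whose product protects telomere ends, strand bias was 50.9 points in naive ESCs and -0.54 in EpiLCs. At Map7, a microtubule-associated protein, it was 56.2 and 5.12 points. At Arl13b, a small GTPase of the cilium, it was 54.9 and 9.79 points.

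At all 3 a large naive step stood beside a small one in EpiLCs. The other 5 lower starts were Bet1, Dhtkd1, Denr, Nt5dc3 and Slc16a10, with naive values from 36.0 (Bet1) to 56.3 points (Nt5dc3) and EpiLC values from -10.3 (Bet1) to 11.3 points (Nt5dc3). Strand bias was also lower in EpiLCs at 7 of these 8 starts in control and at 5 of 8 in dKO. The share of all starts with a lower value was not computed in these 2 lines, and in dCD it was 55.7%. The choice by size itself raises the differences of the named starts in dCD. The starts with higher values in EpiLCs were Mtch1, Cpd, Ctsll3, Pygo1, Sept9, Clic5, Oasl2 and Fbp1. Strand bias at Mtch1, which encodes a protein of the mitochondrial outer membrane, was -35.6 points in naive ESCs and 12.6 in EpiLCs. At Pygo1, a coactivator of Wnt signalling, it was -38.7 and 4.28 points. Of the 8 starts, 4 also had higher values in EpiLCs in control, and 4 did in dKO.

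Genes of the naive pluripotency network had the highest mean strand bias of the 11 lists in naive ESCs and the most negative difference, with 25 kb on each side. Over 20 genes mean strand bias was 20.3 points in naive ESCs and 11.5 in EpiLCs, a difference of -8.78 (-13.9 to -3.66), beside -1.97 over all gene starts. The median difference was -7.76 points, beside -1.80 over all starts. The difference was below 0 at 15 of 20 genes (75%, against 55.7% of all starts). The interval lay below 0 at 2 of 20 (10%, against 5.47%) and above 0 at none, against 2.68%.

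The 2 genes were Tfcp2l1 and Stat3, a transcription factor of naive self-renewal and the effector of LIF signalling, whose CpG-rich upstream stretches are shown above. At Tfcp2l1 strand bias was 45.2 points in naive ESCs and 23.4 in EpiLCs (difference -21.8, -40.9 to -0.65). At Stat3 it was 28.1 and 4.73 points (difference -23.3, -43.4 to -1.01). Both differed in the same direction in the other lines, Tfcp2l1 from 39.5 to 21.3 points in control and from 33.1 to 24.7 in dKO, and Stat3 from 25 to 17.5 and from 15.4 to 2.76.

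Among the other naive genes, Zfp42, a marker of the naive state, stood at 30.1 and 3.54 points, with an interval of the difference that reached from -51.3 to 1.104. At Tet2, a 5-methylcytosine dioxygenase, it was 42.5 and 19.4 points. The CpG-poor Nr5a2, a nuclear receptor, had 29.0 and 11.02 points, so a large step was also seen at a start with 5 CpG within 500 bases on either side. Several other genes of the list had differences well within their intervals. Among the core factors, Pou5f1 had 21.9 and 25.2 points, Sox2 13.6 and 8.26, and Nanog 25 and 23.4. The Krüppel-like factors Klf2, with 19.4 and 15.4 points, Klf4, with 20.2 and 12.4, and Klf5, with 8.71 and 3.855, were of the same kind, as was the T-box factor Tbx3 with 28.45 and 31.1. At Esrrb and Tcl1 the bias was negative in both states, -8.53 and -0.12 points at Esrrb and -7.95 and -5.95 at Tcl1.

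The mean difference at naive genes was also negative in the other lines. It was -8.65 points in control (17.7 to 9.07) and -5.89 in dKO (13.9 to 8.002). The difference of dCD minus that of control was -0.13 points (-7.21 to 6.95), and that of dCD minus dKO -2.89 (-10.2 to 4.39). With 50 kb on each side these were -3.69 and -4.02 points, with standard errors of 2.53 and 2.58. With the EpiLC values divided by the amplitude ratio, the difference at naive genes in dCD was -4.82 points with a standard error of 2.88, so that it was not beyond counting error relative to the flatter map. Without this division, it was -11 points with 50 kb on each side in place of 25 kb, with a standard error of 1.82. With 10 kb it was -3.83 with a standard error of 4.26, which is within counting error, and the H3K4 methylation (-7.42) and DNA replication lists (-6.46) then had more negative differences. H3K4 methylation genes also had the higher naive mean there, 14.5 against 13.2 points.

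Formative genes, which are turned on in EpiLCs, had no lower mean. Over 19 genes it was 10.8 points in naive ESCs and 12.7 in EpiLCs, a difference of 1.93 (-3.27 to 7.13). The difference was below 0 at 7 of 19 genes (36.8%, against 55.7% of all starts), with a median of 4.69 points. The interval lay above 0 at 2 of 19 (10.5%, against 2.68%) and below 0 at 2 of 19 (10.5%, against 5.47%).

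The genes above 0 were Fgf15 and Grhl2. At Fgf15, a fibroblast growth factor, strand bias was -9.52 points in naive ESCs and 15.1 in EpiLCs. At Grhl2, a transcription factor that opens epithelial enhancers, it was -14.0 and 17.6 points. In the other lines Grhl2 had a positive bias in both states, 24.3 and 24.4 points in control and 48.4 and 21.7 in dKO, so the naive value of dCD stands apart from all of them, and Fgf15 had -0.45 and 0.21 points in control and 10.1 and 19.2 in dKO.

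The genes below 0 were Dnmt3a, a de novo DNA methyltransferase, with 37.5 points in naive ESCs and 11.1 in EpiLCs, and Etv5, an effector of FGF and ERK signalling, with 29.2 and 7.05. In the other lines Dnmt3a had 25.8 and 13.3 points in control but -4.91 and 20.7 in dKO, the opposite direction. Etv5 had 13.9 and 11.96 points in control and 15.9 and 7.69 in dKO. Otx2, a transcription factor of the formative state, had 27.9 and 8.96 points, and the interval of its difference reached from -38.6 to 3.24. Zic2 had 8.49 and 24.97 points, with an interval of -3.11 to 35.6. Fgf5, the classical marker of EpiLCs, had a bias close to 0 in both states, -1.47 and -6.61 points. The formative genes thus did not share 1 direction.

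The mean difference at formative genes was -2.75 points in control and -0.98 in dKO. Relative to control the dCD difference was 4.68 points (-2.51 to 11.9), and relative to dKO 2.91 (-4.49 to 10.3). When the EpiLC values were divided by the amplitude ratio, formative genes in dCD differed by 6.31 points with a standard error of 2.87, and without the T minus A part by 2.97 with a standard error of 2.70.

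**Figure D4:**
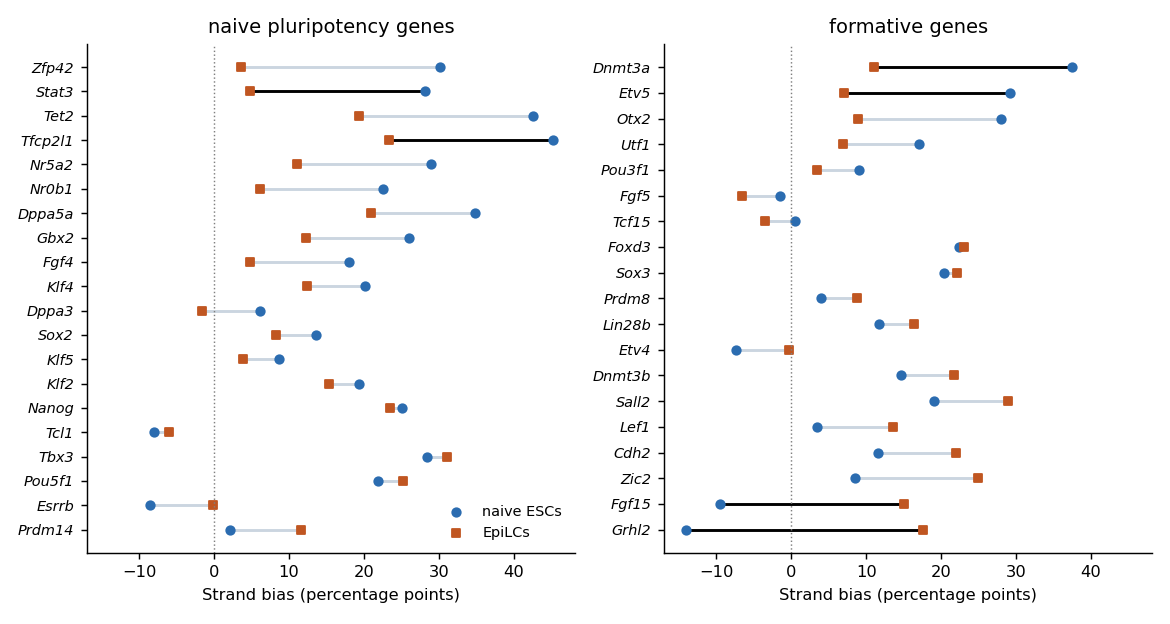
Strand bias in percentage points at the starts of naive pluripotency (left) and formative genes (right) in naive ESCs (circles) and EpiLCs (squares) of dCD, ordered by the difference. A black bar marks genes whose 95% counting interval of the difference leaves out 0, which are Stat3 and Tfcp2l1 on the left and Dnmt3a, Etv5, Fgf15 and Grhl2 on the right. The EpiLC value is lower at 15 of 20 naive genes and at 7 of 19 formative genes.

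Developmental regulators, most of which are silent or poised in pluripotent cells, had no lower mean as counted. Over 45 developmental transcription factors mean strand bias was 14.6 points in naive ESCs and 15.2 in EpiLCs, a difference of 0.55 (-2.85 to 3.96). This value depended on the setting, since it was -3.17 points with a standard error of 2.70 for 10 kb on each side, -0.26 for summed reads and 5.79 with a standard error of 1.88 after division by the amplitude ratio. The difference was -1.06 points in control and -0.63 in dKO, and dCD minus control was 1.61 (-3.07 to 6.30). The interval lay above 0 at 4 of 45 (8.89%, against 2.68% of all starts) and below 0 at 2 of 45 (4.44%, against 5.47%). Those above were En1, Dlx2, Nkx6-1 and Gata4, homeobox and GATA factors of brain, pancreas and heart, and those below were Dlx5 and Eomes. At Dlx2, the CpG-rich start shown above, the bias was 2.64 and 24.9 points in dCD, but 25.6 and 11.3 in control and 22.1 and 13.1 in dKO. At Gata4 it was -13.5 and 14.3 points, and the sign turned likewise in control (-19.6 to 3.32) and dKO (-14.5 to 1.94). At Eomes it was 41.7 and 12.7 points.

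The 39 Hox genes had 6.49 points in naive ESCs and 8.97 in EpiLCs, a difference of 2.48 (-0.75 to 5.71). Hox genes stand in clusters, so neighbouring starts share reads and their values are not independent. The interval lay above 0 at 1 of 39, Hoxb8 (-8.13 and 10.7 points, 2.56%, against 2.68%), and below 0 at none. In control the difference was -1.41 points and in dKO -1.30. In dCD its sign turned with 10 kb on each side (-0.98 points) and in thinned libraries (-0.51), and after division by the amplitude ratio it was 5.58 with a standard error of 1.77.

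Genes that every cell uses had lower means in EpiLCs as counted. The 83 ribosomal protein genes had 13.3 and 9.90 points, a ratio of 0.746, and the interval lay below 0 at 4 of 83 (4.82%, against 5.47% of all starts) and above 0 at none (against 2.68%). The 176 genes of the mitochondrial respiratory chain and ribosome had 8.83 and 6.30 points, a ratio of 0.714, with 10 below 0 (5.68%, against 5.47%) and 5 above 0 (2.84%, against 2.68%), shares near those of all starts. Without the T minus A part the difference was -2.74 points (-5.26 to -0.21) at ribosomal protein genes and -1.46 (-3.17 to 0.25) at mitochondrial genes. The 43 genes of the replication machinery had 11.9 and 8.21 points, a ratio of 0.690, and their difference of -3.68 points (-7.13 to -0.24) was -2.23 (-5.76 to 1.30) without the T minus A part, where the ratio was 0.468. The interval lay below 0 at 2 of the 43 (4.65%, against 5.47% of all starts) and above 0 at none. Of these 2, Dbf4, the activating subunit of the Cdc7 kinase that fires origins, had 44.0 points in naive ESCs and 11.8 in EpiLCs, and Rfc1, of the clamp loader, 36.5 and 13.3. At the MCM helicase genes the values lay between -3.85 points (Mcm3) and 30.3 (Mcm7) in naive ESCs and between -1.47 and 19.1 in EpiLCs, and at none did the interval leave out 0.

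The 21 genes of H3K4 methylation, which include the mutated enzymes and their complex, had 16.9 points in naive ESCs and 10.4 in EpiLCs, a difference of -6.51 (-11.4 to -1.61). Those with an interval below 0 were Kdm5b, an H3K4 demethylase, at 22.8 and 2.84 points, and Cxxc1, a subunit of the SET1 complex, at 49.6 and 17.3 (2 of 21, 9.52%, against 5.47%). Kmt2c itself had 17.0 and 2.12 points, with an interval of the difference from -32.4 to 4.40. Kmt2d had 4.69 and 8.65 points. The list's difference was -6.04 points in control and -4.20 in dKO, and in dCD without the T minus A part it was -4.39 (-9.43 to 0.65).

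Lists with a mean near or below 0 in naive ESCs were there in EpiLCs too. The 1064 olfactory receptor genes, silent and poor in CpG, had -0.34 points in naive ESCs and 0.00 in EpiLCs. The 67 replication-dependent histone genes had -3.90 and -4.64 points, so that forks tended to meet there in both states. These genes lie in dense clusters and share reads. The 228 giant genes of 500 kb or more had 8.37 and 6.36 points at their starts, a ratio of 0.760, and their difference of -2.004 points (-3.70 to -0.31) was -0.86 (-2.59 to 0.88) without the T minus A part.

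**Figure D5:**
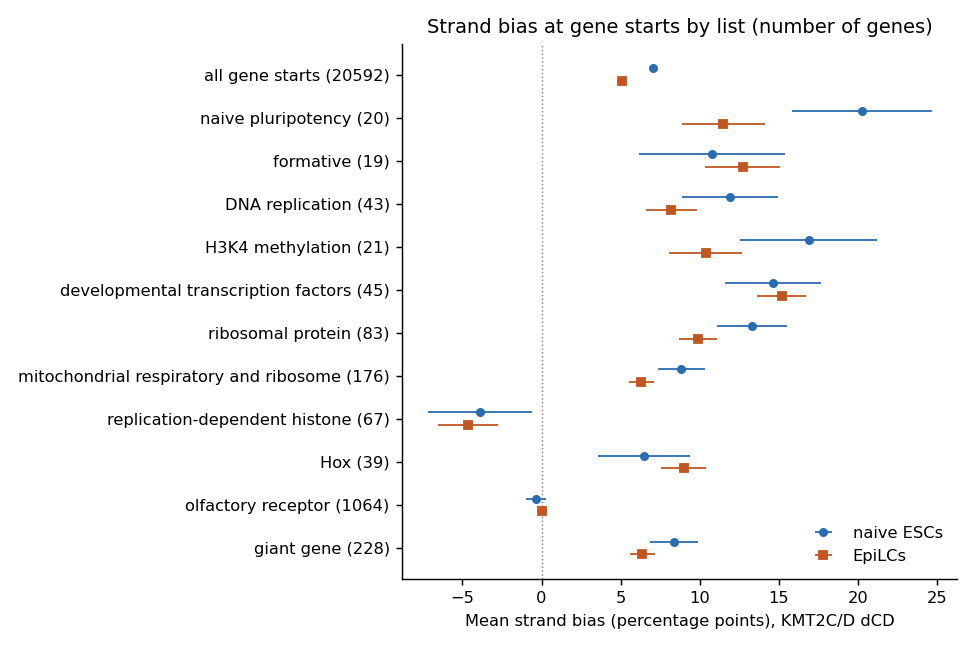
Mean strand bias in percentage points at gene starts of each list in naive ESCs (circles) and EpiLCs (squares) of dCD, with the number of genes in parentheses and bars for 95% intervals of counting error. Naive pluripotency genes go from 20.3 to 11.5 points, while formative, developmental and Hox genes do not have a lower mean in EpiLCs as counted with 25 kb on each side. With 10 kb on each side the mean is lower for developmental (-3.17) and Hox genes (-0.98).

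Within gene bodies the excess of forks that move with transcription was also smaller in EpiLCs as counted. For 1915 genes of 100 to 300 kb, 56.7% of forks moved with transcription in naive ESCs and 55.1% in EpiLCs, a difference of -1.57 points (-1.74 to -1.40). After division by the amplitude ratio this was 0.20 with a standard error of 0.094. The share was 54.8% and 53.3% for 8619 genes of 10 to 50 kb, 57.8% and 55.6% for 2494 genes of 50 to 100 kb, and 54.3% and 53.2% for 567 genes above 300 kb. Most of this excess followed T minus A content, since without it the share for genes of 100 to 300 kb was 51.4% and 51.2%. The differences of the other size classes were then -0.33 points (10 to 50 kb), -0.69 (50 to 100 kb) and -0.14 (above 300 kb). At 20556 gene ends the mean strand bias was 0.15 and 0.17 points, and without the T minus A part 2.504 and 2.01. Of these ends, 52.5% lie within 10 kb of a gene start. At the 2250 gene ends with no gene start within 50 kb it was -3.04 points in naive ESCs and -2.12 in EpiLCs, but 1.56 and 1.36 without the T minus A part, so that its sign rested on that part.

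Initiation zones were called in the control and dKO libraries only and measured in dCD, which took no part in the choice. At 38034 zones called in naive ESCs mean strand bias in dCD was 9.36 points in naive ESCs and 6.51 in EpiLCs, a ratio of 0.695. At 23265 zones called in EpiLCs it was 13.0 and 9.53 points, a ratio of 0.730. Zones of both states thus had a positive step in both states of dCD, the smaller one in EpiLCs. The numbers of zones depended on depth, and in libraries thinned to the same number of reads 38773 naive and 37061 EpiLC zones were measured. Within 10 kb of a gene start naive zones had 14.6 and 10.3 points (7909 zones), and beyond 25 kb from any gene start 7.47 and 5.07 (25625 zones), with ratios of 0.704 and 0.679. Much of the step followed T minus A content, and with zones called and measured without it the values were 3.87 and 2.41 points at naive zones and 6.53 and 5.05 at EpiLC zones.

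Zones called as lost or gained in the other 2 lines had different ratios in dCD. The naive control and dKO tracks, summed for the call, held a mean of 41.65 and 37.19 reads per 25 kb. At this depth a called loss or gain can come from counting error, and how many did was not tested. At 17417 lost zones, with at least 10 points in naive and under 5 in EpiLC libraries of control and dKO, strand bias in dCD was 3.67 points in naive ESCs and 2.29 in EpiLCs, a ratio of 0.622. At 6152 gained zones it was 5.83 and 4.78 points, a ratio of 0.820 and a difference of -1.05 (-1.40 to -0.70). In thinned libraries there were 18326 lost and 16599 gained zones, and strand bias at the gained ones was 1.45 points in both states of dCD. The difference at gained zones turned positive when the EpiLC values were divided by the amplitude ratio (0.60 points with a standard error of 0.19) and when zones were called and measured without the T minus A part (0.19 points with a standard error of 0.18). Its sign therefore depends on the reference chosen. The ratio at gained zones was above, and that at lost zones below, the 0.744 of the whole map.

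The difference at gene starts between the states was compared between lines over 20461 starts with enough reads in all 6 libraries. It was 0.17 points less negative in dCD than in control (-0.06 to 0.39) and 0.32 points more negative than in dKO (-0.54 to -0.09). Without the T minus A part dCD minus dKO was -0.12 points with a standard error of 0.12, so that it was not beyond counting error. The sign of dCD minus control turned without that part (-0.11 points) and with 50 kb on each side (-0.08). After division by the amplitude ratio of each line, dCD minus control was 0.62 points and dCD minus dKO 0.27. Neither comparison thus kept its sign over these settings.

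The distribution of reads along the genome also differed between the states. The share of reads on a chromosome in EpiLCs over that in naive ESCs of dCD ran from 0.953 on chromosome 6 to 1.06 on chromosome X. On chromosome X it was also 1.06 in control and 1.02 in dKO, and on chromosome 6 it was 0.999 and 0.995. In 5 Mb windows of dCD it ran from 0.805 at chr18:80000001-85000000 to 1.15 at chr4:65000001-70000000. Windows that differed by more than 1.1-fold made up 11.4% of 511 in dCD, against 3.89% in control and 0.586% in dKO. Its part in the differences of fork direction was not tested.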

How the data were processed

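OK-seq, which sequences EdU-labelled Okazaki fragments by strand, was done by the authors in naive ESCs and EpiLCs of 3 lines. According to the methods they aligned reads to mm10 with Bowtie2. The submitters' processing notes also name FastQC, Trim Galore and Picard, without versions. Whether duplicate reads were removed is not given in the sources used here. The authors deposited 1 track per condition with Watson and Crick signal per 1 kb bin (2725511 bins, values in reads per bp), replicates summed and depth not equalised. Multiplied by 1000, all deposited signal values were whole to within 2.27e-13 and were used as reads. Positions mark bin ends: read so, the 74135 bins that are only N in GRCm38 held 0 reads, and 3045 if positions marked starts.

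Chromosomes 1 to 19 and X were used, without 83 bins above 10 times the median. Windows needed at least 20 (50 kb), 200 (500 kb) or 2000 reads (5 Mb), and sites 10 reads on each side, in both dCD libraries. Gene starts are those of GENCODE M21. Intervals are Wilson (shares), Newcombe (differences) or from the delta method with reads shared by neighbouring sites counted once (means over sites). They cover counting error only, since without molecular identifiers a read is not an independent molecule. Odd and even bins of the same window differed by 1.04 (naive) and 1.095 times (EpiLC) the binomial variance in dCD. The T minus A part was fitted for each library on the Crick share of a bin relative to its neighbours and taken off with the sum of reads kept. A zone is a peak of strand bias that reaches 10 points, with 10 kb or more to the next.

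The code (Python 3.11.15, numpy 2.4.6, pandas 2.3.3, matplotlib 3.10.9) was tested on simulated strands with known changes. Named windows are the 5 called 500 kb windows with the largest difference in each direction and up to 3 of 5 Mb, with their longest protein-coding genes. Named gene starts are the 8 largest rises and 8 largest falls with at least 30 reads on each side, an interval without 0 and 200 kb between them, and the naive and formative lists. The lists and comparisons were chosen with earlier results of these data known. Alternatives were flanks of 10 and 50 kb, summed reads, thinned libraries, division by amplitude, all bins, autosomes, shifted windows, other thresholds, isolated sites, zones called in 1 line, and values without the T minus A part. Odd against even bins, and zones called without the T minus A part but measured as counted, and isolated sites without the T minus A part, were added after seeing the data.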

Additional observations from a re-analysis of the deposited data

How the results depend on the processing

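No paired analysis was possible because the 2 replicates of each condition are summed in 1 deposited track. For the same reason no replicate could be left out. Called windows of 500 kb numbered 225, and 114 without the T minus A part, 1562 when a difference of 5 points was enough and 0 at 20 points. The 50 kb windows numbered 9245, and 1761 at 20 points. Of 5 Mb windows 1 was called, against 0 without the T minus A part, 0 with windows shifted and 0 at 10 points, 4 with no bins left out and 23 at 2.5 points. The amplitude ratio of 0.744 was 0.779 without the T minus A part and 0.742 from odd against even bins.

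The difference at all gene starts (-1.97 points) was -0.972 without the T minus A part, -0.226 rescaled by amplitude, -2.30 at isolated starts and -0.973 at these without the T minus A part. At gene ends it was 0.02 points, against -0.495 without the T minus A part, 0.254 and -0.367 with 10 and 50 kb, 0.925 at isolated ends and -0.207 at these without the T minus A part. In genes of 100 to 300 kb it was -1.57 points, against -0.26 without the T minus A part and 0.202 rescaled by amplitude. Rescaling also turned the sign in the second CpG quartile (0.014), at ribosomal protein (0.044) and giant genes (0.193) and in dCD minus dKO at all starts (0.273). For dCD minus control at all starts it gave 0.624, against -0.114 without the T minus A part and -0.078 with 50 kb. Among the alternatives run, the naive pluripotency list lay between -11 and -3.83 points and the formative list between 0.437 and 6.31.

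At naive zones (-2.85 points) the difference was -1.47 without the T minus A part, -0.603 rescaled, -1.72 with 50 kb, -3.31 with summed reads, -3.80 and -4.87 for zones of 15 and 20 points, -2.03 and -1.96 for zones called in control and in dKO, and -1.71 for zones called without the T minus A part. At EpiLC zones (-3.52) these were -1.48, -0.231, -2.15, -4.01, -4.87, -6.34, -2.37, -2.75 and -2.04, with -1.94 after thinning and -3.28 with 10 kb. At lost zones (-1.39) they were -0.927, -0.597, -0.598, -1.61, -2.14, -2.79, -0.970, -0.703 and -0.977, with -1.61 for 10 kb. At gained zones (-1.05) the sign turned without the T minus A part (0.191), after thinning (0.00511) and rescaled (0.600), and the value was -0.016 with 50 kb, -0.335 for zones called in control and -0.166 for zones called without the T minus A part. The cause of these changes was not tested. Depth limits single gene starts most, with a median half-width of 21.7 points.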
